A study of Mus musculus with 12 samples.

Results

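Transcripts that moved in opposite directions when *Stella* was lost and when it was gained were sought in female germline stem cells (FGSCs). The difference between the arms, (Over minus Over-con) minus (KO minus KO-con), was tested over all 12 libraries in 1 fit, and a transcript was taken as reciprocal where both arms also passed an adjusted p of 0.05 with opposite signs. Of 9903 transcripts tested, out of 41388 listed, 36 were reciprocal (0.364%), each from a different gene. 18 were lower in KO and higher in Over (0.182%), and 18 were higher in KO and lower in Over (0.182%). The arm values chose these members, so their fold changes, p-values and the separation of their libraries are a description of them and not further evidence.

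The cells were an FGSC line from C57BL/6 mice, kept on mitotically inactivated STO feeder cells, and their mRNA was sequenced in 4 groups of 3 libraries. KO was a *Stella* knockout made with CRISPR/Cas9, its guide RNAs carried by lentivirus, as 1 clone picked at random. KO-con was its control, of which the labels give no further treatment. Over carried *Stella* on a lentivirus with puromycin selection, and Over-con the empty lentiviral vector. A knockout effect and a peculiarity of the clone cannot be told apart, and each arm has its own control. It is not stated whether the 3 libraries of a group came from separate cultures, so the p-values measure the spread between these libraries, which may be technical.

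*Stella*, listed as *Dppa3*, encodes a small protein of the early germline and the oocyte that moves between nucleus and cytoplasm. It is known as a maternal-effect factor that guards the DNA methylation state of the oocyte and the early embryo. FGSCs are mitotically active cells isolated from the postnatal ovary, and they can be propagated on feeder cells for many passages.

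The libraries held between 5611846 and 12866545 counts, with a median of 10221419, and values are given as CPM (counts scaled to a common library size) scaled by TMM over all 12 libraries. A library's 3 counts, taken as the least amount shown, correspond to 0.233 to 0.535 CPM, a floor for counting error only. *Dppa3* had 0 counts in all 9 KO, KO-con and Over-con libraries and 347, 371 and 285 counts in Over, which is at least 80.8-fold higher against a floor of 3 counts per Over-con library. The gain of *Stella* mRNA is therefore seen in the counts, whereas a loss was not detectable at this depth. With KO and KO-con all at 0, the difference between the arms had a standard error of 25102.5 for *Dppa3* and was not called. Among 15 germ cell markers, *Ifitm3* lay between 77.0 and 164 CPM, while *Ddx4*, *Tfap2c* and *Figla* had 0 counts and *Dazl*, *Pou5f1*, *Nanos3* and *Stra8* had 1 count each over the 12 libraries. Of these, *Figla* and *Stra8* are listed with 1 transcript, and the other 5 with 2, a class on which few counts fall in this table. *Nobox*, *Sohlh1* and *Zp3*, each listed with 1 transcript, had 5, 7 and 4 counts over the 12 libraries. *Ifitm3* is also in the list of interferon-stimulated genes used here. *Sycp3*, *Gdf9* and *Prdm1* were detected at low levels, with 191, 119 and 104 counts over the 12 libraries. The other assays by which the study characterised the line were not analysed here.

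Both treatments were then compared over all transcripts. The difference between the arms passed the test for 856 transcripts (8.64%), 448 of them with the Over effect above the KO effect (4.52%) and 408 below it (4.12%). KO differed from KO-con for 1322 transcripts (13.3%), lower for 693 (7%) and higher for 629 (6.35%). Over differed from Over-con for only 127 (1.28%), with 64 higher (0.646%) and 63 lower (0.636%). In most called differences the knockout arm alone passed. For 639 of the 856 the KO arm alone passed, for 28 the Over arm alone, for 146 neither arm, for 7 both in the same direction, and for 36 both in opposite directions. The fitted effects had opposite signs in 722 of the 856 (84.3%) and in 5222 of all 9903 (52.7%), where opposite signs favour a called difference by construction. Among the 66 transcripts that passed in both arms, 36 moved in opposite directions and 30 in the same direction, and across all transcripts the effects of the arms had a Pearson r of -0.03. Genes are not independent replicates, and this r carries no test.

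**Figure D1:**
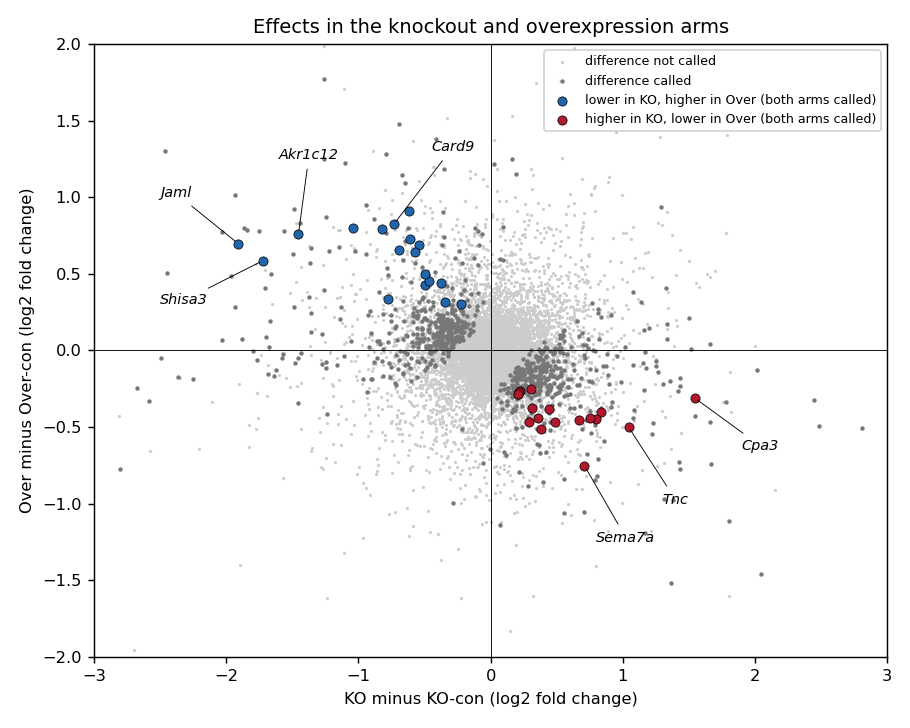
Each point is a transcript, with the log2 fold change of KO against KO-con on the x axis and that of Over against Over-con on the y axis; grey marks transcripts by whether the difference was called, blue and red mark the 18 and 18 reciprocal members. *Dppa3* was left out and 15 points lie outside the axes; the members sit in the upper left and lower right, within 1 on the y axis, and up to -1.91 and 1.55 on the x axis.

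The count of 36 was sensitive to single libraries. Without Over-con replicate 3 it was 83. Without Over-con replicate 1 it was 10, without Over replicate 1 it was 12, without Over-con replicate 2, Over replicate 2 or Over replicate 3 it was 15 each, and without KO-con replicate 1 it was 22. In all 12 fits that left out a library, every member kept both its signs. The libraries of each arm did not overlap for any member, so this was all but fixed beforehand and nothing is read from it. Both calls were kept in each of these fits by 8 members, namely *Akr1c12*, *Akr1c13*, *Card9*, *St8sia4*, *Hhip*, *Itih5*, *Tnc* and *Aif1l*.

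The members' effects were mostly below 1 on the log2 scale. In the first direction the log2 fold changes lay between -1.91 and -0.23 in KO (median -0.61) and between 0.30 and 0.91 in Over (median 0.65). In the other direction they lay between 0.20 and 1.55 in KO (median 0.41) and between -0.75 and -0.25 in Over (median -0.42). Over all transcripts tested both medians were near zero, and the median absolute effects were 0.18 in KO and 0.13 in Over. An absolute log2 fold change over 1 was seen for 6 members in KO and for 0 in Over, and 13 members reached 0.5 in both arms. The Over effect was the larger in 17 of the 36 and the KO effect in the others, with a median ratio of Over to KO effect of 0.971 in absolute size. Their median level was 71.9 CPM, against 20.0 CPM over all transcripts tested.

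The libraries of the arms did not overlap for any member, 36 of 36 in both arms. Over all transcripts tested this held for 2960 in the knockout arm (29.9%), for 1875 in the overexpression arm (18.9%) and for 702 in both (7.09%). The members were chosen by both arms, so nothing is read from their separation. In the heat map of the members, the 3 libraries of a group carry a similar shade for most members.

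**Figure D2:**
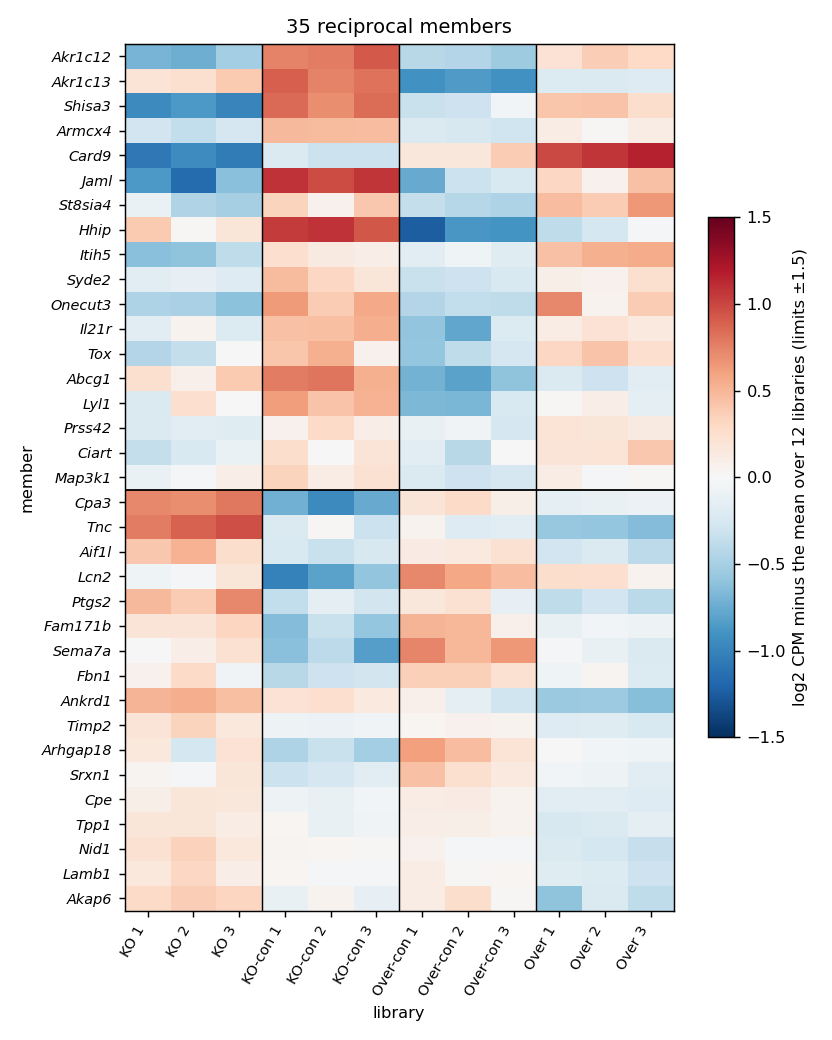
Rows are 35 of the 36 members (those lower in KO and higher in Over above the line, those higher in KO and lower in Over below it) and columns the 12 libraries; colour is log2 CPM minus the member's mean over the 12 libraries, with limits at ±1.5. KO-con is the reddest group for many upper rows and the bluest for several lower rows, so the control groups differ as well as the treated ones.

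The members lower in KO and higher in Over include several signalling genes. *Card9* encodes an adaptor that links C-type lectin receptors of innate immune cells to NF-kappa B. It stood at 18.9, 20.8 and 19.2 CPM in the KO libraries, 34.2, 31.9 and 31.9 in KO-con, 44.7, 44.8 and 51.8 in Over-con and 79.0, 83.4 and 88.5 in Over. KO was the lowest and Over the highest of the 4 groups, no 2 groups overlapped, and it was the sole member of this direction with the order KO, KO-con, Over-con, Over. Its log2 fold change was -0.73 (standard error 0.094) in KO and 0.82 (standard error 0.084) in Over, and the difference was 1.56 (standard error 0.13, adjusted p = 9.76e-08) in edgeR's quasi-likelihood test. The gene lies on chromosome 2 from 26207696 to 26216438 of mm9, on the minus strand. The 250 bases before its start are shown because its 4 groups kept this order without overlap, as RefSeq gives them on GRCm38.p6 at chr2:26360910-26361159, minus strand, with CG dinucleotides, the sites of DNA methylation, in capitals. Only 3 CG lie in them.
Card9: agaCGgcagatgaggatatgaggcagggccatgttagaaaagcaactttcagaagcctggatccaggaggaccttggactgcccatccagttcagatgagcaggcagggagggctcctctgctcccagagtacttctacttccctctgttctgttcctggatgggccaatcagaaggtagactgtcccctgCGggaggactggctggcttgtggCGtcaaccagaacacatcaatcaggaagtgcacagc

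*Hhip*, a membrane protein that binds and restrains Hedgehog ligands, stood at 32.8, 25.3 and 28.4 CPM in the KO libraries, 51.8, 52.9 and 47.5 in KO-con, 10.6, 13.6 and 13.4 in Over-con and 19.2, 20.8 and 24.7 in Over. The arms did separate, yet every KO library was above every Over library, and KO-con exceeded Over-con by 2.03 on the log2 scale. Its log2 fold changes were -0.82 (standard error 0.11) in KO and 0.79 (standard error 0.14) in Over. *Map3k1*, a kinase upstream of JNK, had the smallest difference of this direction, with -0.23 in KO and 0.30 in Over. *Il21r*, the receptor for the cytokine interleukin 21, stood at 17.0, 19.9 and 16.6 CPM in the KO libraries, 25.9, 26.1 and 27.9 in KO-con, 12.6, 11.1 and 16.5 in Over-con and 20.6, 22.2 and 21.1 in Over. Its Over libraries lay just above its KO libraries. *Shisa3*, an endoplasmic reticulum protein that restrains WNT and FGF receptors, stood at 6.92, 7.38 and 6.73 CPM in the KO libraries, 24.1, 21.7 and 23.9 in KO-con, 10.6, 10.8 and 13.0 in Over-con and 17.8, 17.9 and 16.1 in Over. KO was the lowest group and KO-con the highest, with Over between KO-con and Over-con. Its log2 fold changes were -1.72 (standard error 0.13) in KO and 0.59 (standard error 0.12) in Over.

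A pair of aldo-keto reductases had the lowest adjusted p of this direction. *Akr1c12* and *Akr1c13* belong to the family of enzymes that reduce steroids and other carbonyl compounds with NADPH, and they lie in the same cluster, on chromosome 13 from 4267418 to 4278679 (minus strand) and from 4190430 to 4204842 (plus strand). *Akr1c12* stood at 34.6, 33.7 and 39.4 CPM in the KO libraries, 93.7, 95.4 and 106 in KO-con, 42.1, 41.4 and 38.7 in Over-con and 65.1, 72.6 and 69.0 in Over. KO was the lowest and KO-con the highest, and KO lay below Over-con except that 1 KO library exceeded 1 Over-con library. *Akr1c13* stood at 916, 938 and 1043 CPM in the KO libraries, 1487, 1331 and 1399 in KO-con, 424, 440.5 and 422 in Over-con and 689, 686 and 696 in Over. Over-con was the lowest here and KO-con again the highest, and all KO libraries exceeded all Over libraries. The log2 fold changes in KO were -1.45 (standard error 0.084) for *Akr1c12* and -0.54 (standard error 0.064) for *Akr1c13*, and those in Over 0.76 (standard error 0.086) and 0.69 (standard error 0.065). The genes are close paralogs, and how the authors' counting treated reads that match both is not stated, so the share of each is uncertain. Their 250 upstream bases, shown because the members move together, are given from RefSeq on GRCm38.p6 at chr13:4279400-4279649 (minus strand) and chr13:4190937-4191186 (plus strand), CG in capitals. In a global alignment of 254 columns, 235 were identical (92.5%).
Akr1c12: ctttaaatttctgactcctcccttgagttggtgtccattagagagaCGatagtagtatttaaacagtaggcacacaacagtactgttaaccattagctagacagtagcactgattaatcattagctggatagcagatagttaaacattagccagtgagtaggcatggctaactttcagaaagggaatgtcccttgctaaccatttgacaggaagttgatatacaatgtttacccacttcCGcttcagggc
Akr1c13: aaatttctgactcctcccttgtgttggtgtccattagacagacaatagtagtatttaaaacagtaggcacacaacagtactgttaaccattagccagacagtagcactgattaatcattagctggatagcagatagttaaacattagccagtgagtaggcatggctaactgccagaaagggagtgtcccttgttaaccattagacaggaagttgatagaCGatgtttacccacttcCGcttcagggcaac

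Other enzymes and surface proteins moved the same way. *St8sia4*, a polysialyltransferase that builds polysialic acid on NCAM, stood at 36.5, 28.8 and 27.8 CPM in the KO libraries, 49.5, 41.0 and 51.7 in KO-con, 30.5, 29.1 and 28.5 in Over-con and 53.8, 51.1 and 61.3 in Over. Over overlapped KO-con, and KO overlapped Over-con, while each arm separated. It had the largest Over effect of all members, 0.91 (standard error 0.11), against -0.61 (standard error 0.11) in KO. *Abcg1*, a transporter that exports cholesterol, and *Prss42*, a testis serine protease known from spermatocytes, changed by -0.46 and -0.34 in KO and by 0.45 and 0.32 in Over. *Jaml*, an adhesion molecule of leukocytes, stood at 6.58, 5.39 and 7.73 CPM in the KO libraries, 25.4, 23.5 and 25.1 in KO-con, 7.08, 9.52 and 10.2 in Over-con and 14.8, 12.5 and 16.2 in Over. It had the largest KO effect of all members, -1.91 (standard error 0.16), and the Over libraries stayed below all KO-con libraries. *Itih5*, a heavy chain of the inter-alpha-trypsin inhibitor family that binds hyaluronan, stood at 11.2, 11.4 and 13.3 CPM in the KO libraries, 20.5, 18.9 and 18.6 in KO-con, 15.3, 16.6 and 15.3 in Over-con and 23.4, 24.9 and 25.5 in Over. All Over libraries were above the KO-con libraries and all KO libraries below the Over-con libraries.

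Transcription factors made up a further group. *Tox*, an HMG-box factor of T cell development, stood at 14.0, 14.9 and 18.9 CPM in the KO libraries, 25.4, 27.5 and 19.9 in KO-con, 12.7, 14.6 and 15.9 in Over-con and 23.5, 25.5 and 22.6 in Over. KO overlapped Over-con in a low range and Over overlapped KO-con in a high range. *Lyl1*, a bHLH factor of blood stem cells, changed by -0.50 in KO and 0.50 in Over, and its KO and Over libraries overlapped, 96.3, 133 and 111 against 113, 119 and 101 CPM. *Onecut3*, a homeobox factor, changed by -1.04 and 0.80, and *Ciart*, a repressor of the circadian clock, by -0.38 and 0.44. The remaining members were *Armcx4*, an armadillo-repeat gene of the X chromosome with -0.78 in KO and 0.33 in Over, and *Syde2*, a gene for a GTPase-activating protein, with -0.49 and 0.43.

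**Figure D3:**
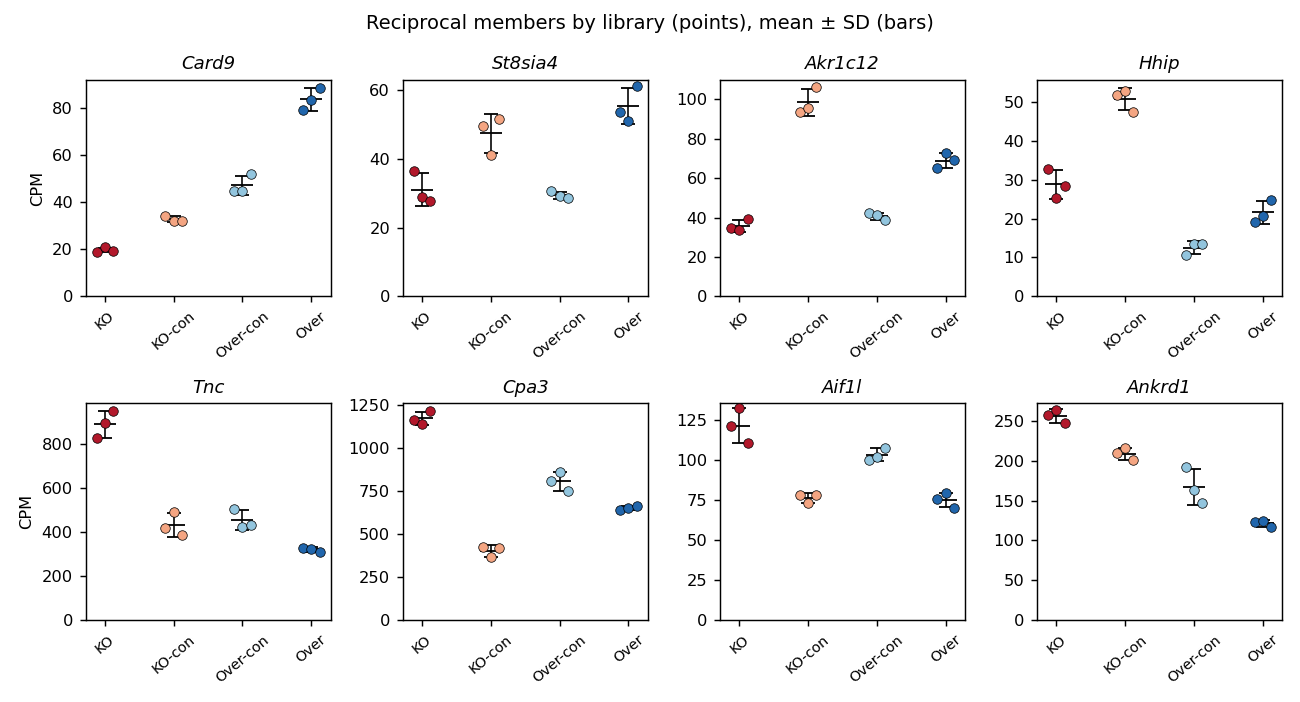
CPM (y axis, from 0) of 8 members in the 4 groups; points are libraries, bars the mean ± SD with n = 3. *Card9* rises and *Ankrd1* falls from left to right without a step back, whereas *Hhip* differs more between KO-con and Over-con than within either arm.

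The members higher in KO and lower in Over are described by role, in groups made after their values were seen. Those of the extracellular matrix were *Tnc*, *Nid1*, *Lamb1*, *Fbn1* and *Timp2*, of which *Fbn1* alone is in the list of fibroblast and matrix genes used here (1 of 15 tested). *Tnc*, tenascin C, a matrix glycoprotein of remodelling tissue, stood at 829, 896 and 953 CPM in the KO libraries, 419, 493 and 388 in KO-con, 506, 426 and 432 in Over-con and 329, 325 and 310.1 in Over. The control groups overlapped, KO was above both and Over below both. Its log2 fold changes were 1.04 (standard error 0.085) in KO and -0.50 (standard error 0.086) in Over, and the difference was -1.54 (standard error 0.12, adjusted p = 6.35e-08) by edgeR. *Nid1*, nidogen, which ties laminin to collagen IV in basement membranes, stood at 2822, 3043 and 2671 CPM in the KO libraries, 2466, 2458 and 2434 in KO-con, 2499.6, 2353 and 2351 in Over-con and 2069, 2006 and 1882 in Over. All KO libraries exceeded all others and all Over libraries lay below all others, while KO-con and Over-con overlapped. *Lamb1*, a laminin beta chain, changed by 0.21 and -0.29, *Fbn1*, fibrillin, the scaffold of elastic microfibrils, by 0.44 and -0.38, and *Timp2*, an inhibitor of matrix metalloproteinases, by 0.30 and -0.25.

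Fibroblasts, the type of the STO feeder cells, make such proteins, and in bulk RNA fewer cells of a type and less RNA per cell cannot be told apart. The summed level of 10 fibroblast markers, of which 7 were tested, was 879 to 1270 CPM in KO and 1003 to 1185 in KO-con, ranges that overlap. In Over it was 1250 to 1307 CPM and in Over-con 1412 to 1597, ranges that do not. *Col1a1* and *Col1a2* were abundant in all libraries, and *Pdgfrb*, listed with 2 transcripts, was at 0. The part of feeder RNA in the matrix members was not tested.

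Proteases included the member with the lowest adjusted p of this direction. *Cpa3*, the carboxypeptidase of mast cell granules, stood at 1160.1, 1139.7 and 1216 CPM in the KO libraries, 426, 364 and 416 in KO-con, 808, 862 and 751 in Over-con and 637, 649.9 and 663 in Over. KO was the highest and KO-con the lowest group, and Over lay between KO-con and Over-con with no overlap between any groups. Its log2 fold changes were 1.55 (standard error 0.071) in KO and -0.31 (standard error 0.069) in Over. *Cpe*, a carboxypeptidase that matures prohormones, and *Tpp1*, a lysosomal peptidase, changed by 0.22 and 0.20 in KO and by -0.27 and -0.28 in Over. *Cpa3* made up nearly all of the summed level of 10 mast cell markers, of which 4 were tested, which was 1149 to 1230 CPM in KO, 371 to 431 in KO-con, 760 to 864 in Over-con and 647 to 669 in Over. The other markers tested were *Cma1*, a mast cell chymase, with a log2 fold change of 1.78 in KO, *Hdc*, the enzyme of histamine synthesis, with 1.29, and *Gata2* with -0.35. *Cma1* and *Hdc* passed in KO (adjusted p = 0.00304 and 0.0164 from edgeR) as *Cpa3* did, and in Over they had 0.77 and 0.82, which did not pass. Both were low, with group means of 0.35 (Over-con) to 3.80 CPM (KO) for *Cma1* and 1.58 (Over-con) to 4.18 CPM (KO) for *Hdc*. *Fcer1a*, *Ms4a2* and *Tpsab1* were at 0 counts in every library, and *Kit* had 10 counts over all 12, but *Ms4a2* is listed with 4 transcripts and *Kit* with 2, the class on which few counts fall. *Mcpt4* and *Tpsb2*, each listed with 1 transcript, had 3 and 8 counts over all 12. The part of mast cell genes in the *Cpa3* values was not tested. Upstream bases are shown for *Cpa3* and *Tnc*, which had the largest differences of this direction, from RefSeq on GRCm38.p6 at chr3:20242182-20242431 and chr4:64047016-64047265, both minus strand, with CG in capitals. The *Cpa3* bases hold 3 CG and those of *Tnc* 8.
Cpa3: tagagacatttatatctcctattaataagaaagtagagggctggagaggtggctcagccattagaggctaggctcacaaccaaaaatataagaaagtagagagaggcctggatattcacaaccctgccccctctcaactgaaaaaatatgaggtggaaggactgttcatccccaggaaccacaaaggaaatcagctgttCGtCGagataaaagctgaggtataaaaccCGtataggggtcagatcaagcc
Tnc: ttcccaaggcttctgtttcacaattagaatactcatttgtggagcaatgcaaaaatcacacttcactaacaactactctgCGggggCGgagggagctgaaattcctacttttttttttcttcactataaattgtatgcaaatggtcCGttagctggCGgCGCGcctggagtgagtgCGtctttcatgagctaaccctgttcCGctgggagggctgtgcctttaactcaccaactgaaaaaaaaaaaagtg

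Genes of inflammation and stress formed a further group. *Lcn2*, lipocalin, which binds bacterial siderophores, stood at 167, 173 and 199 CPM in the KO libraries, 86.4, 100.1 and 116 in KO-con, 287, 262 and 241 in Over-con and 209, 208 and 181 in Over. KO-con was the lowest and Over-con the highest group, with KO and Over between them. *Ptgs2*, the inducible cyclooxygenase of prostaglandin synthesis, stood at 73.4, 68.1 and 86.4 CPM in the KO libraries, 40.4, 47.2 and 43.2 in KO-con, 59.0, 61.2 and 48.0 in Over-con and 40.3, 42.8 and 39.5 in Over. KO was above all other groups, and Over overlapped KO-con. *Srxn1*, which repairs oxidised peroxiredoxins, changed by 0.31 in KO and by -0.38 in Over. Of 10 macrophage markers, 3 were tested, and *Adgre1*, *Itgam*, *C1qa* and *C1qb* were at 0 counts. *Adgre1* is listed with 3 transcripts and *Itgam* with 2, the class on which few counts fall, and *C1qa* and *C1qb* with 1 each. The sum of the 10 markers was higher in KO (43.0 to 51.6 CPM) than in KO-con (34.1 to 41.3) and higher in Over (48.5 to 51.2) than in Over-con (35.8 to 41.7), without overlap in either arm. *Cd68* made up most of this sum and was the sole marker of the 3 to pass, with 0.47 in KO and 0.50 in Over. *Cd14* had -0.49 and -0.21 and *Csf1r* 0.65 and -0.30, none of which passed. Their part in the members' values was not tested.

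A further 6 members of this direction were a mixed group, with genes of guidance, the cytoskeleton and signalling among them. *Sema7a*, a membrane-anchored semaphorin, stood at 10.2, 10.9 and 11.8 CPM in the KO libraries, 6.53, 7.71 and 5.70 in KO-con, 16.7, 14.3 and 15.8 in Over-con and 9.92, 9.36 and 8.67 in Over. Over-con was the highest and KO-con the lowest group, and it had the largest Over effect of this direction, -0.75 (standard error 0.14), against 0.71 (standard error 0.15) in KO. *Ankrd1*, a nuclear ankyrin-repeat cofactor induced by YAP, stood at 258, 264 and 248 CPM in the KO libraries, 210.2, 216 and 201 in KO-con, 192, 163 and 147 in Over-con and 123, 125 and 116 in Over. The 4 groups fell in the order KO, KO-con, Over-con, Over without overlap, the mirror image of *Card9*, and its log2 fold changes were 0.29 (standard error 0.078) and -0.47 (standard error 0.08). *Aif1l*, an actin-binding protein, stood at 121, 132 and 111 CPM in the KO libraries, 78.4, 73.0 and 78.0 in KO-con, 99.9, 102 and 108 in Over-con and 75.7, 79.4 and 70.3 in Over. KO was the highest, and Over and KO-con shared the low range. *Arhgap18*, a GTPase-activating protein, changed by 0.48 and -0.47, and *Fam171b*, a membrane protein, by 0.75 and -0.44. *Akap6*, an anchor for protein kinase A, changed by 0.38 and -0.51 and kept both calls in just 1 of the 12 fits without a library.

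Members nearest the threshold, set by the larger adjusted p of the arms, were *Prss42*, with 0.0494 in Over, and *Akap6*, with 0.0454 in Over. Just outside lay *Tnfrsf10b* and *Smim3*, each with 0.0506 in Over. *Tnfrsf10b* had 0.34 in KO and -0.29 in Over, and *Smim3* 0.20 and -0.25, so these are as reciprocal in sign as the members inside.

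The control groups differed from each other for most members. KO-con against Over-con passed for 1593 of 9903 transcripts (16.1%) and for 28 of the 36 members. These comparisons share libraries with both arms, so the values are given side by side as a description. Among members lower in KO and higher in Over, KO-con was above Over-con in 17 of 18, of which 16 passed, with a median log2 difference of 0.84, and *Card9* (-0.53) was the exception. Among members higher in KO and lower in Over, KO-con was below Over-con in 16 of 18, of which 10 passed, with a median of -0.39. *Ankrd1* (0.32) and *Nid1* (0.03) were the exceptions. Whether these gaps bear on the arm effects was not tested.

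The order of the 4 group means varied between members. In 14 members KO and Over were the outermost groups, 4 of the first direction (*Card9*, *Itih5*, *Prss42* and *Ciart*) and 10 of the other (*Tnc*, *Aif1l*, *Ptgs2*, *Ankrd1*, *Timp2*, *Cpe*, *Tpp1*, *Nid1*, *Lamb1* and *Akap6*). In 15 members, 8 and 7, the control groups were outermost and KO and Over lay between them, as for *Hhip*, *Akr1c13*, *Abcg1* and *Lcn2*. In the other 7 a treated group and a control group were outermost. These counts describe the members, and as no share among other transcripts is set beside them, nothing is read from them. Over was then set against KO directly, which passed for 1078 of 9903 transcripts (10.9%). The sign matched the difference in 14 of 18 members of the first direction, of which 12 passed, and in 17 of 18 of the other, of which 12 passed. In 3 members of the first direction, *Akr1c13*, *Hhip* and *Abcg1*, Over was below KO and the comparison passed.

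**Figure D4:**
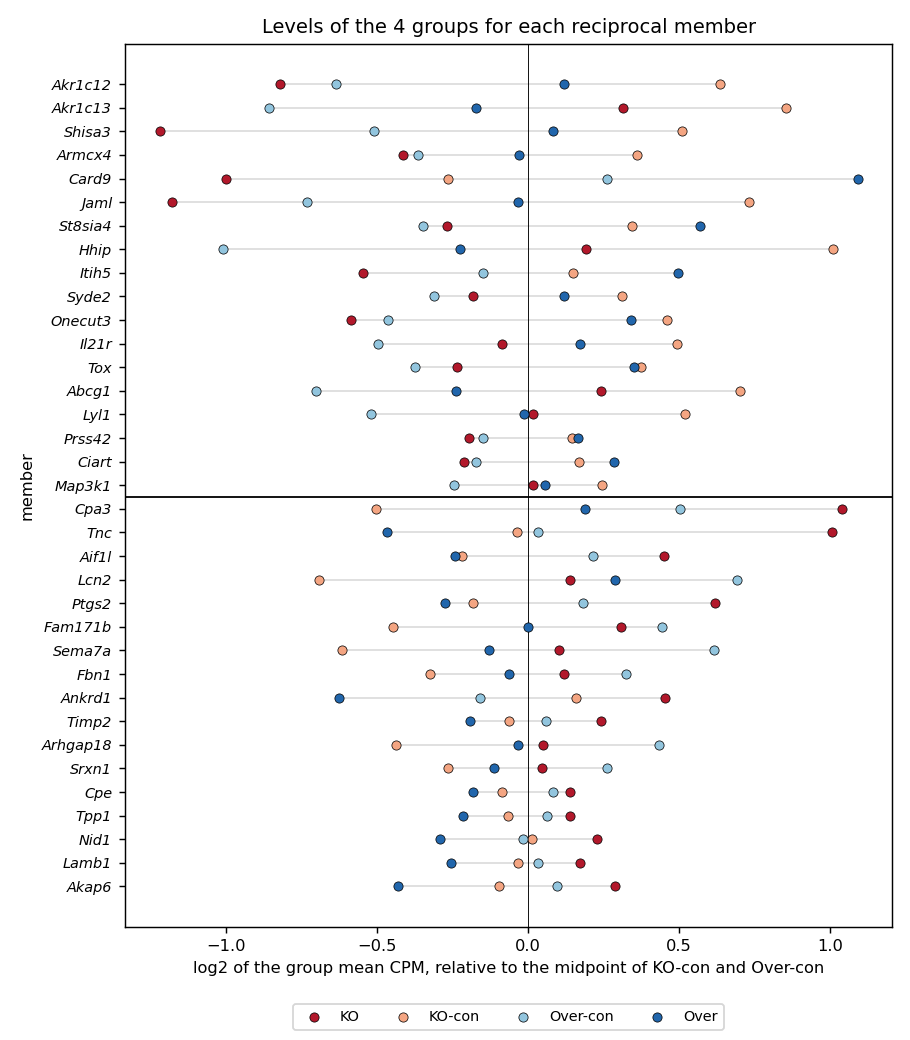
For 35 of the 36 members (rows), points give the log2 of the group mean CPM relative to the midpoint of KO-con and Over-con, for KO, KO-con, Over-con and Over; members lower in KO and higher in Over are above the line. For *Card9*, *Tnc* and *Ankrd1* the dark red KO and dark blue Over points are the outermost, whereas for *Hhip*, *Akr1c13* and *Lcn2* they lie between the control points.

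With all 6 control libraries as 1 group, 4 transcripts were reciprocal, 3 of them members (*Card9*, *Tnc* and *Ankrd1*), and 24 of the 36 members kept both signs. With the control groups exchanged, so that KO was set against Over-con and Over against KO-con, 344 transcripts were reciprocal. Of the 36 members, 5 were then reciprocal in the same direction (*Card9*, *Itih5*, *Tnc*, *Ankrd1* and *Nid1*) and 7 in the opposite direction (*Akr1c13*, *Hhip*, *Abcg1*, *Lyl1*, *Lcn2*, *Sema7a* and *Arhgap18*). Both signs were kept by 14 members and both were reversed in 15. *Card9*, *Tnc* and *Ankrd1* were the members that were reciprocal with either control and with both together. These fits reuse the libraries that chose the members, so they restate the order of the 4 groups and are no separate check.

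Other genes of the members' pathways were taken from lists, and 8.64% of all transcripts had a called difference. Of the 10 genes tested in the CARD9 pathway, from the receptors and *Syk* to *Bcl10* and *Traf6*, *Card9* was the sole gene with a called difference (10% of the list). The list's median effect was -0.09 in KO and 0.18 in Over. Of 8 genes tested in the Hedgehog pathway, *Hhip* alone had a called difference (12.5%). *Gli1*, a target and effector of the pathway, passed in KO with *Hhip* (-0.53, adjusted p = 0.0367 from edgeR) and had -0.20 in Over, which did not pass. Of 11 genes for sialic acid transfer, *St8sia4* and *St6galnac3* had a called difference (18.2%), the latter with 1.20 in KO and 0.14 in Over. In the TOX family *Tox* had a called difference and *Tox4* did not (50% of 2 tested), and of 8 genes of hyaluronan metabolism and inter-alpha-trypsin inhibitors *Itih5* alone had a called difference (12.5%). With 2 to 11 genes tested, each of these shares comes from 1 or 2 called genes, and nothing is read from them about the pathways.

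Semaphorins and plexins gave 4 called differences among 16 tested (25%, all transcripts 8.64%). Beside *Sema7a* these were *Plxna2* (-0.45), *Plxna3* (-1.04) and *Plxnc1* (0.73), a known receptor of *Sema7a*. The Over effect of *Plxnc1*, 0.60, passed and its KO effect of -0.13 did not. *Plxnc1* and *Sema7a* thus had differences of opposite sign, whereas *Itgb1* of the same list had no called difference (-0.14). Of 15 fibroblast and matrix genes tested, 5 had a called difference (33.3%), 4 of them negative: *Fbn1* (-0.83), *Col6a1* (-0.57), *Thy1* (-0.47) and *Col4a2* (-0.45). *Pdgfra* had a positive one (1.54). The list's median difference was -0.42, against -0.01 over all transcripts tested. Of 14 mast cell genes tested, 6 had a called difference (42.9%), *Cpa3*, *Ctsg*, *Slc18a2* and *Mcpt2* below 0 and *Tph1* and *Gzmb* above 0. *Ctsg*, a granule protease, had 1.17 in KO and -0.01 in Over, so among these genes only *Cpa3* passed in both arms. Hematopoietic transcription factors had 3 positive differences among 11 tested (27.3%), *Lyl1* (1.00), *Id2* (0.81, with the KO arm passing) and *Zfpm1* (0.77, with the Over arm passing).

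The other lists held no reciprocal member, and their counts are set beside the shares over all transcripts, 8.64% for the difference, 6.35% for higher in KO, 7% for lower in KO and 0.646% for higher in Over. Of 17 JAK-STAT genes tested, 6 had a positive difference (35.3%), *Osm*, *Pim2*, *Il2ra*, *Socs3*, *Pim1* and *Cish*, each lower in KO, with log2 fold changes of -1.96 to -0.82, and none past the test in Over. Chemokine ligands had 4 called differences among 12 tested (33.3%). *Ccl7* had -1.06 in Over, which passed, and 0.55 in KO, which did not (adjusted p = 0.0509 from edgeR). Of 22 S-phase genes tested, 13 were higher in KO and 1 in Over, and *Rfc2* alone had a called difference (4.55%). Of 32 genes of G2/M tested, 8 were higher in KO and 1 in Over, with *Cdc20* alone called (3.12%). Of 17 genes of DNA methylation 8 were tested, and *Trim28* was the called one (12.5% of those tested, difference 0.45). The others tested were *Mbd2*, *Mbd4*, *Uhrf2*, *Zfp57*, *Tet1*, *Tet2* and *Tet3*, so no DNA methyltransferase was among them. Of 24 genes of chromatin architecture 13 were tested, with *Yy1* (0.46), *Lmnb1* (0.59) and *Lmna* (-0.52) called (23.1%). Of 26 imprinted genes 9 were tested, with *Igf2r* (-0.46) and *Plagl1* (-1.77) called (22.2%). The 8 genes for which the study designed RT-qPCR primers included 6 members, and since the study may have chosen them on these samples they are no independent evidence.

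**Figure D5:**
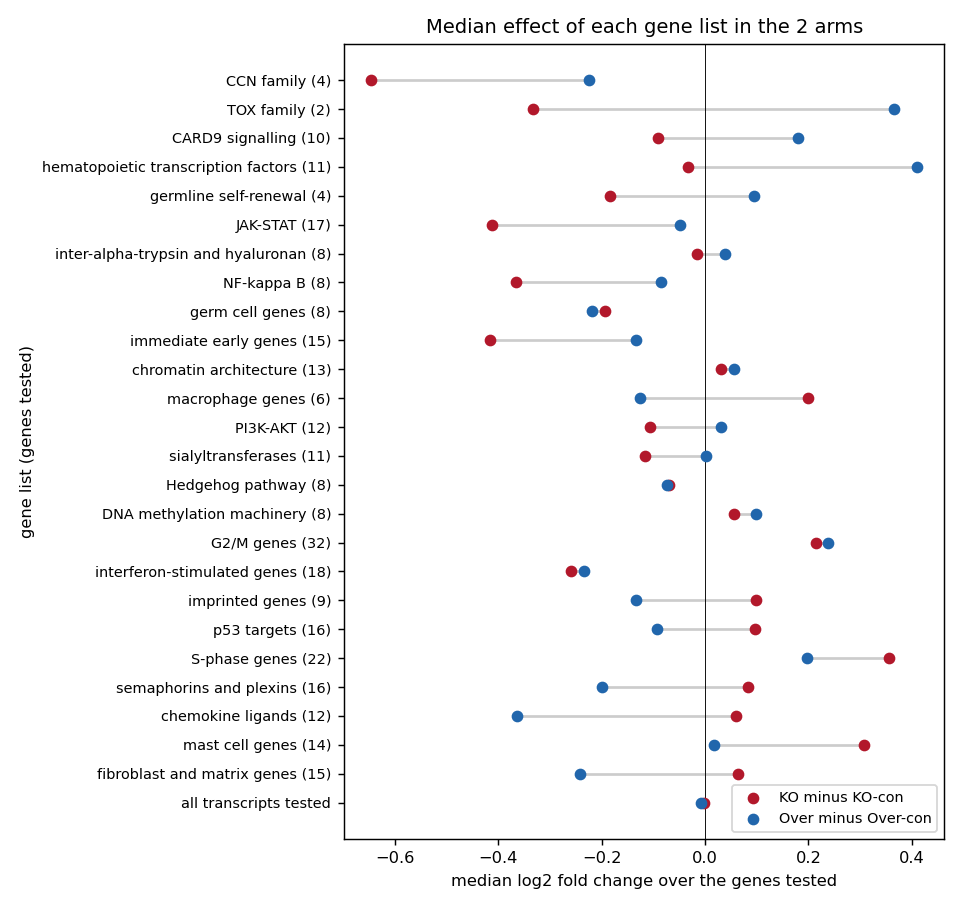
For each gene list (y axis, genes tested in parentheses) the median log2 fold change is shown in KO (red) and in Over (blue), with all transcripts tested at the bottom. The medians lie on opposite sides of 0 for some lists, such as fibroblast and matrix genes (0.06 and -0.24), and on the same side for others, such as S-phase genes (0.36 and 0.20). The named medians kept their signs under each scaling tried.

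Promoters were compared for what the members share that the rule did not use. RefSeq promoters of 300 bases (250 before and 50 after the start, GRCm38.p6) matched 30 of the 36 members and 7375 tested genes. The members had a median of 13 CG, 12 and 14 by direction, against 21 over all. Fewer than 5 CG were found in 8 of the 30 (26.7%), among them *Card9*, *Cpa3*, *Lcn2*, *Akr1c12* and *Akr1c13*, against 8.83% of all promoters. *Akr1c12* and *Akr1c13*, whose upstream bases are 92.5% identical, are counted separately here. Promoters of other changed transcripts were not compared. The core of the antioxidant response element, TGACNNNGC on either strand, which can overlap the AP-1 motif, was in 7 of the 30 (23.3%), *Srxn1* among them, against 15.1% of all. The AP-1 motif TGANTCA was in 3 (10%, all 5.26%), the TATA box TATAAA in 3 (10%, all 7.16%), the TEAD motif GGAATG in 4 (13.3%, all 12.1%), *Ankrd1* among them, and the GATA motif AGATAA in 2 (6.67%, all 5.97%). These matches of letters on both strands are a description and no sign of binding.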

How the data were processed

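RNA-seq counts of 12 FGSC libraries in 4 groups of 3 (KO, KO-con, Over, Over-con; groups from the sample titles) were used. The authors aligned trimmed reads to mm9 with HISAT2 and deposited raw counts per RefSeq transcript, with no normalization; the strand setting and annotation release are not given in the sources used here. Gene symbols were found for 41186 of 41388 transcripts (99.512%) in the RefSeq table of GRCm38.p6. All 12 libraries were fitted at once with edgeR 4.0.16 (TMM, filterByExpr, glmQLFit, glmQLFTest) in R 4.3.3, and p-values were adjusted by Benjamini-Hochberg over 9903 transcripts, with a threshold of 0.05. The biological coefficient of variation was 0.0780. Values of each library are TMM-scaled CPM, and errors are SD. The steps were tested on simulated data.

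The members and gene lists were chosen with earlier results of these data known. The text names all members but 1, which is not reported here, the genes of the study's RT-qPCR primers, transcripts next to the threshold, and, for contrast, 5 transcripts that passed in both arms in the same direction and 5 that passed in 1 arm, by lowest adjusted p; other genes of the lists were named after their values were seen. Positions are from the NCBIM37 (mm9) annotation, and promoter sequences from RefSeq. Alternatives were DESeq2 1.42.0, limma-voom (limma 3.58.1), other scalings and filters, sums per gene, a replicate block, each library left out, and other controls. Python 3.11.15, pandas 2.3.3, matplotlib 3.10.9 and Biopython 1.88 were also used. The study's methylation, ChIP-seq and Hi-C data were not analysed here.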

Additional observations from a re-analysis of the deposited data

How the results depend on the processing

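Counts of called differences stayed between 733 and 921 under DESeq2, limma-voom, other scalings, other filters, sums per gene and the replicate block, against 856. Reciprocal transcripts then numbered 25 to 54, against 36, of which 25 to 36 were shared with the 36 members. With no filter, 31 were lower in KO and higher in Over, and with library totals 11 were higher in KO and lower in Over. Replicate numbers did not pair the samples (correlations of same-numbered deviations -0.152 to 0.100 over 18 pairs), and the replicate block left 733 differences and 25 reciprocal transcripts, 15 and 10 by direction. With a fold threshold (an absolute log2 of 1 for the difference, 0.5 for each arm) 188 differences and 13 reciprocal transcripts remained, 11 and 2 by direction. Without each library in turn, differences numbered 536 to 1126 and reciprocal transcripts 10 to 83, 7 to 50 in the first direction and 3 to 33 in the other. Differences fell most without Over replicate 2 (536), Over replicate 1 (541), Over-con replicate 1 (556) and KO-con replicate 1 (564). By direction, the count higher in KO and lower in Over was also 11 without KO-con replicate 2 or KO replicate 2. With exchanged controls there were 1807 differences and 344 reciprocal transcripts (205 and 139 by direction), and with all 6 controls as 1 group 447 and 4 (2 and 2). The cause of these changes was not tested, beyond the change of control libraries itself. Of the values given for single genes, a called value changed sign under the other controls and under no other alternative.

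With exchanged controls the log2 difference reversed for *Tox* (-0.17), *Hhip* (-2.45), *Sema7a* (0.99), *Akr1c12* (-0.33), *Akr1c13* (-2.20), *Armcx4* (-0.34), *Jaml* (-0.33), *Syde2* (-0.32), *Il21r* (-0.71), *Cpa3* (0.16), *Lcn2* (1.54), *Fam171b* (0.57), *Fbn1* (0.47), *Arhgap18* (0.79), *Smim3* (0.55), *Lyl1* (-1.07), *Pcyox1l* (1.74), *Pim2* (-3.31), *Tcam1* (0.46), *Sspo* (1.07). The KO effect reversed for *St8sia4* (0.071), *Tox* (0.15), *Hhip* (1.21), *Sema7a* (-0.52), *Akr1c13* (1.17), *Syde2* (0.13), *Il21r* (0.39), *Lcn2* (-0.55), *Fam171b* (-0.13), *Fbn1* (-0.20), *Arhgap18* (-0.39), *Smim3* (-0.30), *Lyl1* (0.53), *Pim2* (0.92). The Over effect reversed for *Tox* (-0.027), *Hhip* (-1.24), *Sema7a* (0.48), *Akr1c12* (-0.51), *Akr1c13* (-1.03), *Shisa3* (-0.42), *Armcx4* (-0.39), *Jaml* (-0.77), *Syde2* (-0.20), *Onecut3* (-0.12), *Il21r* (-0.32), *Cpa3* (0.69), *Lcn2* (0.99), *Fam171b* (0.44), *Fbn1* (0.26), *Arhgap18* (0.40), *Lyl1* (-0.53), *Ccn3* (0.43), *Xlr3a* (0.063), *Slc17a9* (0.23), *Pde3b* (0.95), *Pcyox1l* (0.23). With all 6 controls as 1 group the difference reversed for *Hhip* (-0.42), *Akr1c13* (-0.48), *Lcn2* (0.15), *Smim3* (0.053), *Lyl1* (-0.033), *Pcyox1l* (0.51), *Pim2* (-0.43), the KO effect for *Sema7a* (-0.015), *Akr1c13* (0.074), *Lcn2* (-0.018), *Arhgap18* (-0.012), *Smim3* (-0.073), and the Over effect for *Hhip* (-0.57), *Akr1c12* (-0.020), *Akr1c13* (-0.41), *Shisa3* (-0.016), *Armcx4* (-0.078), *Jaml* (-0.23), *Cpa3* (0.11), *Lcn2* (0.13), *Lyl1* (-0.11), *Pde3b* (0.11). Both effects, and so the difference, also reversed with exchanged controls for *Abcg1* (0.93 in KO and -0.94 in Over), *Map3k1* (0.26 and -0.19) and *Srxn1* (-0.22 and 0.15). With all 6 controls as 1 group both effects reversed for *Abcg1* (0.066 and -0.41) and for neither *Map3k1* nor *Srxn1*. The remaining genes of the lists are not covered by this listing.

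The main limits are the 3 libraries per group, a single knockout clone, the unstated source of KO-con, and controls that differ between the arms. *Stella* had 0 counts in KO, KO-con and Over-con, so its loss was not detectable in these counts, and genes listed with several transcripts received few counts.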

Other observations

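Genes that passed in both arms in the same direction, with a called difference, set the reciprocal members in contrast. *Ccn3*, a secreted matricellular protein, stood at 14.8, 15.0 and 17.0 CPM in the KO libraries, 243, 230.2 and 233 in KO-con, 770.0, 569 and 667 in Over-con and 336, 299 and 316 in Over, with log2 fold changes of -3.91 in KO and -1.08 in Over. Both arms were lower than their controls, and Over-con was the highest group. *Slc17a9*, the vesicular nucleotide transporter, had -3.47 and -0.82, the X-linked *Xlr3a* -2.81 and -0.77, *Pde3b*, a cyclic nucleotide phosphodiesterase, -1.24 and -0.41, and *Pcyox1l* -0.28 and -0.99.

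For other large differences the knockout arm alone passed. *Pim2*, a serine/threonine kinase induced by STAT signalling, had -1.96 in KO and 0.49 in Over, which did not pass (adjusted p = 0.0756 from edgeR). Its Over and Over-con libraries still did not overlap. Its group means were 47.5 CPM in KO, 186 in KO-con, 25.3 in Over-con and 35.3 in Over. *Fgl2*, a fibrinogen-like protein, had -1.67 and 0.02, and *Sspo* 1.15 and -0.08. The *Sspo* means were 150 CPM in KO, 67.2 in KO-con, 149 in Over-con and 141 in Over. *Tcam1* had 1.66 and 0.04, and *Prelid3a* 3.02 and 0.23. The meiosis genes *Prdm9* and *Meikin*, for which the study also designed primers, had differences of 0.01 and -0.03, smaller than the spread between libraries.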
